A study of Homo sapiens with 12 samples.

Results

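The mRNA counts of 46 nuclear receptor genes, chosen by gene symbol from the 60671 genes of the count table, were compared in 3 human leukemia cell lines. All 46 were found in the table by their Ensembl gene ID. Of these, 31 had enough counts to be tested and 15 did not. Nuclear receptors are transcription factors, many of which are switched by a small lipid-soluble ligand such as a steroid, retinoic acid, thyroid hormone, vitamin D, an oxysterol or a fatty acid. Most bind DNA through a zinc-finger domain, as homodimers, as monomers or as heterodimers with a retinoid X receptor, and recruit corepressors or coactivators depending on the ligand. In blood cells they are known for roles in differentiation: retinoic acid receptors in the myeloid lineage, the glucocorticoid receptor in stress erythropoiesis and thyroid hormone receptors in red cell maturation.

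K562 is an erythroleukemia line grown from a patient with chronic myeloid leukemia in blast crisis and is the parental, unedited and unselected line here. K/VP.5, the resistant line, is a clone of K562 cells selected by intermittent and then continuous exposure to etoposide, a drug that traps topoisomerase II on DNA. K562/SSedit-2, also called the edited clone here, is a single-cell clone of K562 in which CRISPR/Cas9 with homology-directed repair silenced the 5′ splice site between exon 19 and intron 19 of TOP2A in some, not all, of its TOP2A alleles. All 3 lines were grown in DMEM with fetal bovine serum and harvested in mid-log growth, without a receptor ligand in the labels, and each gave 4 samples. Each derived line is 1 clone, so differences between a derived line and K562 cannot be told apart from differences between clones. Nothing in the sources says whether the replicates came from separate cultures, so that p-values measure the spread between these samples, which may be technical.

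Total counts were 28981722 to 43648830 per sample, and 3 counts corresponded to 0.0691 to 0.102 counts per 1000000 counts of tested genes (CPM). The erythroid genes HBG1, HBG2, HBZ, TFRC, GATA1 and KLF1, which mark this cell type, had means of 124 to 3419 CPM in each line. Of 20 markers of 6 other cell types, the platelet genes GP9 and PF4 were at 0 in each line, and the other megakaryocyte markers, ITGA2B and ITGB3, had means of 0.603 to 1.01 CPM. The epithelial genes EPCAM, KRT8 and KRT18 had means of 129 to 647 CPM in each line. The fourth epithelial marker, CDH1, had means of 0.275, 0.905 and 0.0774 CPM in K562, K/VP.5 and the edited clone, and it rose in K/VP.5 (log2 fold change 1.73) and fell in the edited clone (-1.74). The 3 stromal markers summed to 47.0 to 58.7 CPM in K/VP.5, 5.80 to 12.1 CPM in K562 and 5.73 to 9.74 CPM in K562/SSedit-2. COL1A1 and COL1A2 rose in K/VP.5, and PDGFRB, the other stromal marker, had a log2 fold change of -0.092 (adjusted p = 0.819). The 3 T cell markers, nearly all from CD3D, summed to 6.88 to 10.9 CPM in K/VP.5, 23.2 to 50.7 CPM in K562 and 36.9 to 53.0 CPM in K562/SSedit-2. The monocyte marker LYZ fell in K/VP.5, from a mean of 1.44 to 0.291 CPM (log2 fold change -2.27, adjusted p = 8.93e-06), and the 3 monocyte and 3 B cell markers summed to at most 2.79 CPM in any library. The part of these marker differences in the receptor results was not tested.

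TOP2A, the edited gene, had a mean of 402 ± 59.1 CPM (SD, n = 4) in K562, 275 ± 7.50 CPM in K/VP.5 cells and 192 ± 16.0 CPM in the edited clone. Its log2 fold change was -0.55 in K/VP.5 cells and -1.07 in the edited clone, where it was -0.96 without K562 replicate 1. That library stood apart from the other K562 libraries, and results that rest on it are also given without it. In K562/SSedit-2 replicate 4, all 25637 genes above 0 had an even count, against 44.3% to 45.8% of such genes in the other 11 libraries. The receptor calls for that line were therefore also made with the counts of replicate 4 halved or with the replicate left out. Most single values are given with it as deposited. Why its counts are even was not tested.

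Differences were tested with edgeR's quasi-likelihood F test with the 12 samples fitted jointly and p-values adjusted by Benjamini-Hochberg over 18626 genes. "Rose" and "fell" are used for genes that changed at least 2-fold at an adjusted p under 0.1. In K/VP.5 compared to K562, 4 of the 31 tested receptor genes rose, where 8.98% of all tested genes did, and 5 fell, where 6.66% of all tested genes did. In K562/SSedit-2 compared to K562, 1 rose and 1 fell, where 0.805% and 1.26% of all tested genes did. In K562/SSedit-2 compared to K/VP.5, 4 rose and 4 fell, where 6.2% and 9.62% of all tested genes did. Those shares were 12.9% and 16.1%, 3.23% and 3.23%, and 12.9% and 12.9% of the tested receptor genes in the same order. The first 2 comparisons share the K562 samples, so their values are given side by side and not as independent evidence.

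The median log2 fold change of the tested receptor genes was -0.19 in K/VP.5 cells and -0.12 in the edited clone, against 0.0067 and -0.013 for all tested genes. With no fold change cutoff, 22 of the 31 tested receptor genes differed between K/VP.5 and K562, where 52.3% of all tested genes did, and 9 between K562/SSedit-2 and K562, where 12.6% did. In K/VP.5 the range of log2 fold changes was wide, from -9.82 for PGR to 6.32 for NR5A1, while in K562/SSedit-2 it was narrow, from -1.50 for RARB to 1.06 for NR5A1. These summaries describe the 31 genes that passed the filter on low counts and not all 46.

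**Figure D1:**
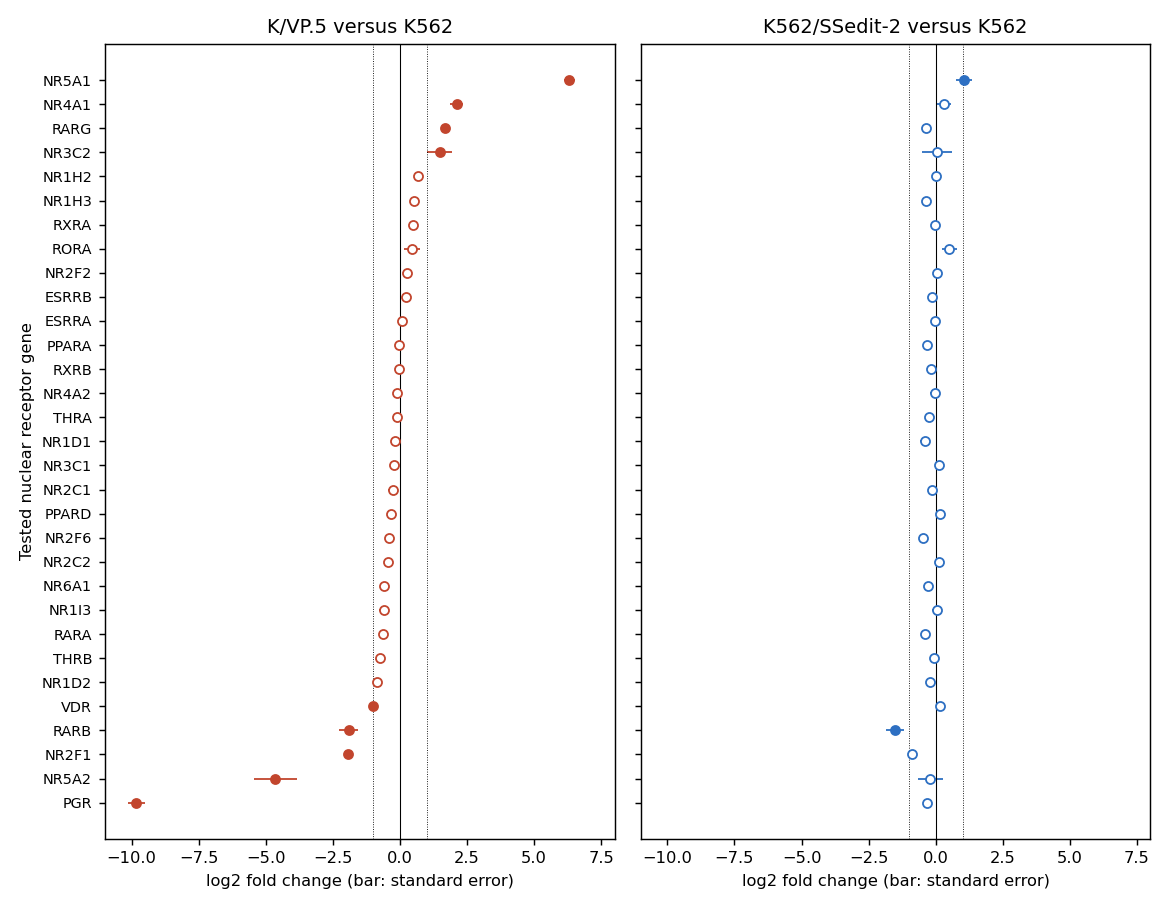
Log2 fold change of the 31 tested nuclear receptor genes in K/VP.5 (left) and K562/SSedit-2 (right) compared to K562, with bars for the standard error, which for many genes is smaller than the point. Filled points passed both cutoffs, dotted lines mark a 2-fold change, and both panels share the same scale and the same K562 samples. The K/VP.5 panel has 9 filled points between -9.82 and 6.32, and the K562/SSedit-2 panel has 2, RARB at -1.50 and NR5A1 at 1.06.

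For 4 promoters, of the genes on which the results turn and of 1 gene of retinoic acid breakdown, the 300 bases from 250 before to 50 after a transcription start are shown 5′ to 3′ on the strand of the gene, from RefSeq for GRCh38.p14. For NR5A1 (chr9:124507350-124507649, minus strand) and PGR (chr11:101129028-101129327, minus strand), the receptor genes with the largest rise and fall in K/VP.5, capitals mark CACGTG (an E-box) and TGACG (the core of a cAMP response element) on either strand. For RARB (chr3:25428013-25428312, plus strand), the receptor gene that fell in both derived lines, and CYP26A1 (chr10:93073643-93073942, plus strand), capitals mark a DR5 element, a direct repeat of a receptor-binding hexamer with 5 bases between, the type of element at which retinoic acid receptor and retinoid X receptor heterodimers are known to bind.
NR5A1: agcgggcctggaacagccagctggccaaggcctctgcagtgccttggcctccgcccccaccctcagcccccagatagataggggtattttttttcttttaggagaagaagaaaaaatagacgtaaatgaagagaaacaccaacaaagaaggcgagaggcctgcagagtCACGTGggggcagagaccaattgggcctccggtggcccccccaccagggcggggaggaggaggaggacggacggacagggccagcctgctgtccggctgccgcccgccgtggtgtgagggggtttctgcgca
PGR: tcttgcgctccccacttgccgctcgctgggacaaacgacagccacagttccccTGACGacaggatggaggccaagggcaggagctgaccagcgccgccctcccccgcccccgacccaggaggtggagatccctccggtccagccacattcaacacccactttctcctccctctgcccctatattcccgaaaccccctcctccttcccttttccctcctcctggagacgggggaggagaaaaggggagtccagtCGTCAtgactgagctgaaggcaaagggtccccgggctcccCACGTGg
RARB: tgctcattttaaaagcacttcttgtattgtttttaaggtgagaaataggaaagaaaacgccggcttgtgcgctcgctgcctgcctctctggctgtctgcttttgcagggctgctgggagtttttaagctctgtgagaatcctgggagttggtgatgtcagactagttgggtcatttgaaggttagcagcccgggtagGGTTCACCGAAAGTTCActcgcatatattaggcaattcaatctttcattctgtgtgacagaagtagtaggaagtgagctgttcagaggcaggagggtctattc
CYP26A1: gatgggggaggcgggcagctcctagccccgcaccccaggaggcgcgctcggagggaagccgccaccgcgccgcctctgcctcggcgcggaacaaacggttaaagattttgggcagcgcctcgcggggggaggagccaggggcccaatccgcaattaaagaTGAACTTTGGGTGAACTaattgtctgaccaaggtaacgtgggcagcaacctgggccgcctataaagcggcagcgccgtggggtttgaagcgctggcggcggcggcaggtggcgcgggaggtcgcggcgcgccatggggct

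Of the 46 receptor genes, 41 had at least 1 such window in the table, 96 windows in all. No window was held for NR4A2, NR2F6, HNF4G, VDR and NR0B2. The nuclear receptor hexamer AGGTCA, searched on both strands, was in 16.7% of the receptor genes' windows (11 of 41 genes) and 13.8% of all 35116 windows. The steroid receptor hexamer AGAACA was in 14.6% (12 genes) and 14.8% of all windows, CACGTG in 9.38% (7 genes) and 7.26%, and TGACG in 21.9% (15 genes) and 24.6%. The 4 motifs do not contain each other. In the printed windows, CACGTG lies 82 bases before the NR5A1 start and 44 bases after the PGR start, and TGACG lies 197 bases before and 4 bases after the PGR start. The DR5 element was searched for after values had been seen, with either purine at the first and G or T at the third base of each hexamer. It was in 0.0883% of all windows, and among the 145 listed receptor, pathway and marker genes with a window it was in RARB and CYP26A1. It begins 53 bases before the RARB start on the gene's strand and 90 bases before the CYP26A1 start on the opposite strand. A match describes these letters and not binding.

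Levels between genes were compared as mean CPM per kb of annotated exon. In K562, NR2F6, an orphan receptor of the COUP group, had the highest level at 60.3 ± 7.99 CPM per kb (SD, n = 4) and made up 28.1% of the sum over the 46 genes. The estrogen-related receptor gene ESRRA followed at 37.0 ± 6.76, the germ cell nuclear factor gene NR6A1 at 21.5 ± 1.60, the oxysterol receptor gene NR1H2 at 13.2 ± 0.757 and the COUP gene NR2F2 at 12.1 ± 0.882 CPM per kb. NR2F6, ESRRA and NR6A1 had replicate ranges in K562 that did not overlap, whereas those of NR1H2 and NR2F2 did, and RXRB, THRA, RXRA and RARA overlapped each with the next. In both derived lines, NR2F6 and ESRRA were still first and second, but their replicate ranges overlapped. In K/VP.5, NR1H2 came next at 20.8 ± 4.04 CPM per kb, with a range that overlapped that of NR2F2 and lay above that of NR6A1. RARG moved from rank 18 in K562 to rank 11 in K/VP.5, and NR5A1 from rank 29 to rank 12.

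**Figure D2:**
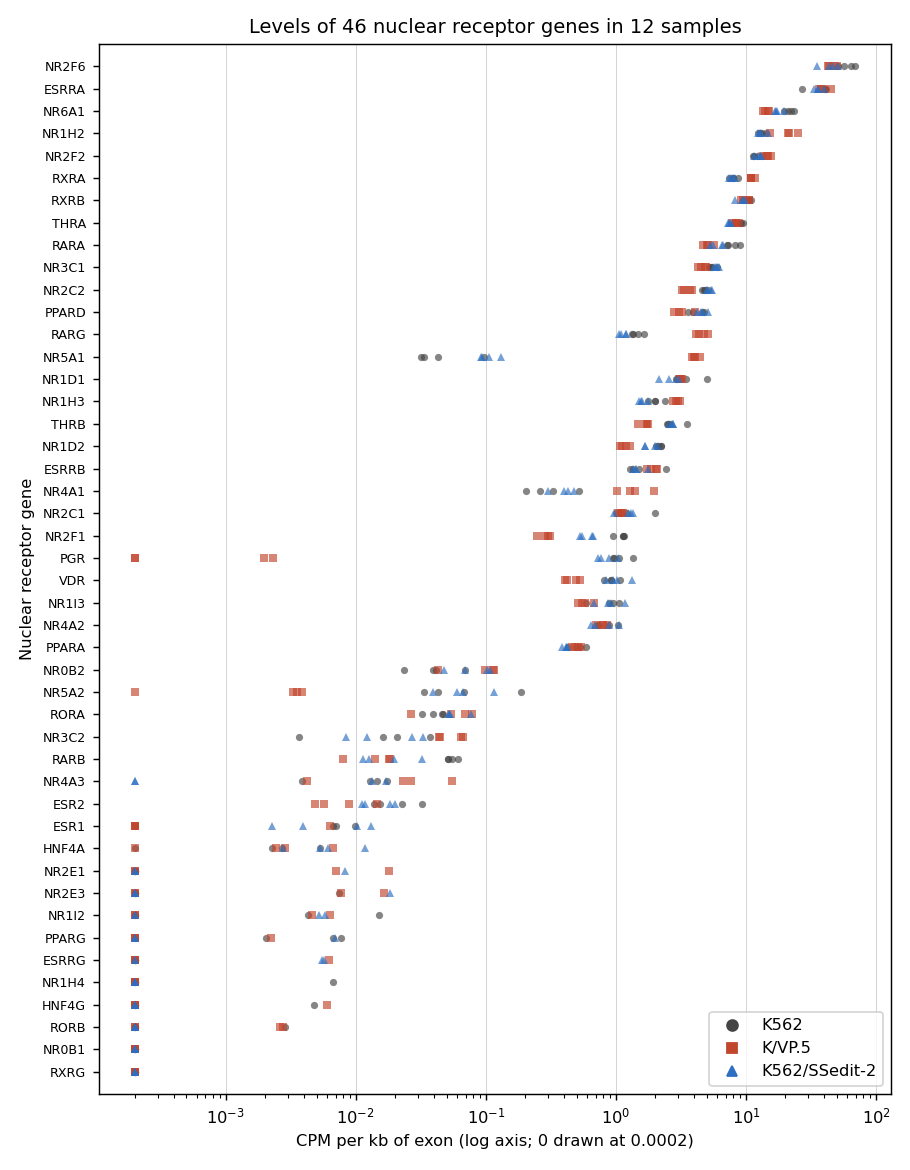
Level of the 46 nuclear receptor genes in CPM per kb of exon on a log axis, with 1 point for each of the 12 samples, ordered by the highest line mean, and with values of 0 drawn at 0.0002. NR2F6 and ESRRA lead in each line, the K/VP.5 squares of NR5A1 lie far above the other lines and those of PGR and NR5A2 far below, and RXRG and NR0B1 are at 0 in all 12 samples.

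A receptor gene was termed silent in a line when each of its 4 libraries held 3 or fewer counts, so a low level of mRNA under this limit was not detectable at this depth. By this measure 11 of 46 genes were silent in K562, 14 in K/VP.5 cells and 10 in the edited clone. The 9 genes silent in all 3 lines were RORB, NR1H4 (the bile acid receptor), NR1I2 (the xenobiotic receptor PXR), RXRG, HNF4G, NR2E1, NR2E3 (a photoreceptor cell receptor), ESRRG and NR0B1 (DAX1). Of these, RXRG and NR0B1 had no count in any of the 12 libraries, which allows up to 0.0691 to 0.102 CPM per library. HNF4A, a liver and gut receptor gene, was silent in K562 and K/VP.5, with 0 to 2 counts per library, and had 1, 2, 2 and 4 counts in K562/SSedit-2. With replicate 4 halved, 11 genes were silent in K562/SSedit-2 in place of 10.

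PGR, ESR1 and NR5A2 were silent in K/VP.5 and in neither other line. The estrogen receptor gene ESR1 had 0, 4, 5 and 4 counts in K562, 0, 0, 3 and 0 in K/VP.5 cells and 5, 2, 1 and 6 in the edited clone, so these libraries overlapped. PPARG, the fat cell receptor gene, had 0, 4, 3 and 1 counts in K562, 0, 1, 0 and 0 in K/VP.5 cells and 3, 0, 0 and 0 in the edited clone. NR0B2, a corepressor-like receptor without a DNA-binding domain, had 1 to 3 counts in K562, 2 to 5 in K/VP.5 cells and 2 to 4 in the edited clone. The estrogen receptor gene ESR2 held 6 to 16 counts in K562, 2 to 7 in K/VP.5 cells and 5 to 8 in the edited clone, and NR4A3 held 1 to 4, 1 to 14 and 0 to 4. None of these 6 low genes outside the shared silent set (ESR1, ESR2, NR4A3, PPARG, HNF4A and NR0B2) was tested.

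Among the steroid receptors, PGR and NR3C2 moved in opposite directions in K/VP.5. PGR (ENSG00000082175, chromosome 11 from 101029624 to 101129813, minus strand) encodes the progesterone receptor, a textbook estrogen-induced gene of breast and uterus. It was counted 721, 673, 530 and 578 times in K562 (19.8, 15.5, 14.3 and 14.0 CPM), 0, 0, 1 and 1 times in K/VP.5, and 543, 423, 415 and 360 times in K562/SSedit-2 (15.2, 11.3, 12.98 and 10.7 CPM). K562 and K562/SSedit-2 thus held 360 or more counts per library and overlapped, and K/VP.5 held next to none. The summed counts were 2502 in K562 and 2 in K/VP.5, a normalized ratio of 1121 with a 95% counting interval of 310 to 9259. The fitted log2 fold change, which for so few counts depends on the prior count, was -9.82 (adjusted p = 4.55e-13) in K/VP.5 cells and -0.34 (adjusted p = 0.154) in the edited clone. PGR fell in K/VP.5 cells and rose in the edited clone relative to K/VP.5. In bulk RNA, fewer cells expressing a gene and less RNA per cell cannot be told apart. Counting intervals cover counting error only.

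The 2 other tested genes within 1 Mb of PGR, looked up after its values were seen, were CNTN5 and ARHGAP42. CNTN5 was low, with means of 0.671, 0.0848 and 0.248 CPM in the parental, resistant and edited lines, the K/VP.5 mean being near that of 3 counts. CNTN5 had a log2 fold change of -2.94 in K/VP.5 cells and -1.44 in the edited clone, and both values passed the cutoffs by edgeR and limma. DESeq2 called it in K/VP.5 cells and gave it no adjusted p in the edited clone. ARHGAP42 had a log2 fold change of -2.31 in K/VP.5, past the cutoffs, and 0.062 in K562/SSedit-2, with means of 5.87, 1.17 and 6.12 CPM in the parental, resistant and edited lines, respectively. PGR shares 737 exon bases with the antisense gene PGR-AS1, and the strand setting of the counting is not given in the sources used here, so reads from the 2 cannot be told apart.

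NR3C2 (ENSG00000151623, chromosome 4 from 148078762 to 148444698, minus strand), the mineralocorticoid receptor gene, held 9, 6, 4 and 1 counts in K562, 17, 11, 10 and 13 in K/VP.5 cells and 2, 3, 7 and 6 in the edited clone. All 4 K/VP.5 libraries lay above those of both other lines, at 0.290 to 0.441 CPM against 0.0243 to 0.247 in K562. NR3C2 rose in K/VP.5 with a log2 fold change of 1.48 (adjusted p = 0.0157, standard error 0.47), at a level of less than 1 CPM. It passed the filter on low counts through K/VP.5 alone, the line in which it is high, and with no such filter the log2 fold change was 1.46 (adjusted p = 0.0119). NR3C1, the glucocorticoid receptor gene, was far more abundant, at 54.7, 47.4, 50.3 and 49.1 CPM in K562, 44.7, 45.4, 41.6 and 39.2 CPM in K/VP.5 cells and 54.9, 51.9, 53.8 and 57.0 CPM in the edited clone. Its K/VP.5 libraries lay just below the K562 libraries, with a log2 fold change of -0.24 (adjusted p = 0.0103).

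The 3 retinoic acid receptor genes differed in direction in K/VP.5. RARG (ENSG00000172819, chromosome 12 from 53210567 to 53232980, minus strand), which encodes retinoic acid receptor gamma, had 6.90, 6.81, 7.59 and 8.39 CPM in K562, 22.4, 21.3, 24.5 and 26.2 CPM in K/VP.5 cells and 5.64, 5.38, 6.10 and 6.15 CPM in the edited clone. The 3 lines did not overlap, with K/VP.5 highest and K562/SSedit-2 lowest. RARG rose in K/VP.5 with a log2 fold change of 1.67 (adjusted p = 7.56e-10, standard error 0.10), had a log2 fold change of -0.35 (adjusted p = 0.0461) in K562/SSedit-2, and fell by 2.02 on the log2 scale in K562/SSedit-2 relative to K/VP.5.

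RARB (ENSG00000077092, chromosome 3 from 24687887 to 25597932, plus strand), which encodes retinoic acid receptor beta, is itself a textbook retinoic acid target. It was low in each line, with 19, 25, 18 and 20 counts in K562, 3, 5, 6 and 5 in K/VP.5 cells and 11, 4, 6 and 4 in the edited clone. Both derived lines lay below K562 without overlap, and they overlapped with each other. RARB fell in K/VP.5 with a log2 fold change of -1.91 (adjusted p = 0.000253, standard error 0.35) and in K562/SSedit-2 with -1.50 (standard error 0.33, adjusted p = 0.00981). It passed the filter on low counts through K562, the line in which it is high, and with no such filter these values were -1.94 (adjusted p = 7.48e-05) and -1.53 (adjusted p = 0.00703). It was the only tested receptor gene to pass the cutoffs downward in K562/SSedit-2, and its log2 fold change there was -1.45 with replicate 4 halved and -1.35 without replicate 4. The means were 0.517 ± 0.0427, 0.138 ± 0.0457 and 0.180 ± 0.0916 CPM in the parental, resistant and edited lines, respectively.

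RARA, the receptor gene fused to PML in promyelocytic leukemia, had 42.4, 38.9, 33.7 and 34.8 CPM in K562, 23.7, 22.2, 24.3 and 26.8 CPM in K/VP.5 cells and 31.6, 31.0, 26.5 and 25.2 CPM in the edited clone. Both derived lines lay below K562 without overlap, by less than 2-fold, with log2 fold changes of -0.63 (adjusted p = 5.02e-05) in K/VP.5 cells and -0.39 (adjusted p = 0.0196) in the edited clone. In K562 the order of mean level per kb was RARA, RARG and RARB. In K/VP.5, RARA and RARG had 5.11 and 4.61 CPM per kb, against 7.89 and 1.45 in K562.

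The receptor genes THRB and NR1D2 lie within 1 Mb of RARB on chromosome 3. THRB, which encodes thyroid hormone receptor beta, had 38.4, 27.0, 27.6 and 28.8 CPM in K562, 18.8, 19.3, 18.9 and 16.1 CPM in K/VP.5 cells and 30.0, 28.2, 30.1 and 29.7 CPM in the edited clone. NR1D2, which encodes the clock repressor REV-ERB beta, had 12.9, 11.8, 12.1 and 12.8 CPM in K562, 7.42, 6.94, 6.49 and 6.27 CPM in K/VP.5 cells and 11.5, 9.67, 9.63 and 12.3 CPM in the edited clone. For both genes K/VP.5 lay below the other lines, which overlapped. The log2 fold change in K/VP.5 was -0.73 (adjusted p = 2.20e-05) for THRB and -0.87 (adjusted p = 3.06e-06) for NR1D2, less than 2-fold.

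The 12 other tested genes within 1 Mb of RARB, which include THRB, NR1D2 and the topoisomerase gene TOP2B, showed a median log2 fold change of -0.63 in K/VP.5 cells and -0.026 in the edited clone. In K/VP.5, 10 of the 12 were lower at an adjusted p under 0.1 with no fold cutoff, as were 26.1% of all tested genes, and edgeR called 0 of them past both cutoffs, as did limma and DESeq2. In K562/SSedit-2 no tool called any, and 0 had an unadjusted p under 0.05. TOP2B had a log2 fold change of -0.64 in K/VP.5 cells and -0.039 in the edited clone. RARB fell by more than the median of these neighbours in both lines. The number of gene copies was not measured here.

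THRA, the other thyroid hormone receptor gene, had 59.7, 67.7, 65.6 and 69.7 CPM in K562, 61.6, 57.1, 61.3 and 64.7 CPM in K/VP.5 cells and 54.0, 53.2, 55.2 and 56.0 CPM in the edited clone. Here K562/SSedit-2 was below K562 without overlap, with a log2 fold change of -0.27 (adjusted p = 0.0188), and K/VP.5 overlapped K562 at -0.10 (adjusted p = 0.217). The clock gene NR1D1, whose 3′ end shares 473 exon bases with THRA on the other strand, had 7.56 to 13.1 CPM in K562, 7.996 to 8.43 in K/VP.5 cells and 5.60 to 8.09 in the edited clone, with log2 fold changes of -0.19 and -0.41 and no adjusted p under 0.1. RORA, an activator at the same clock elements, had 0.550 to 0.802 CPM in K562, 0.450 to 1.33 in K/VP.5 cells and 0.893 to 1.31 in the edited clone and did not pass the cutoffs.

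Retinoid X receptors are the shared partners of the retinoic acid, vitamin D, thyroid hormone, fatty acid and oxysterol receptors. RXRA had 89.4, 104, 96.0 and 95.2 CPM in K562, 131, 131, 132 and 143 CPM in K/VP.5 cells and 96.6, 93.2, 100 and 90.1 CPM in the edited clone. K/VP.5 was above both other lines without overlap, by less than 2-fold, with a log2 fold change of 0.48 (adjusted p = 1.08e-05). RXRB had 42.6, 40.3, 41.0 and 36.7 CPM in K562, 37.1, 41.0, 41.3 and 35.9 CPM in K/VP.5 cells and 37.0, 36.3, 38.1 and 32.04 CPM in the edited clone, and the 3 lines overlapped. RXRG was at 0 in all.

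Of the partners, VDR (ENSG00000111424, chromosome 12 from 47841537 to 47943048, minus strand), the vitamin D receptor gene, had 6.13, 4.60, 5.19 and 5.20 CPM in K562, 2.37, 3.01, 2.81 and 2.30 CPM in K/VP.5 cells and 7.56, 5.79, 4.75 and 5.43 CPM in the edited clone. K/VP.5 lay below the other lines, which overlapped. VDR fell in K/VP.5 with a log2 fold change of -1.01 (adjusted p = 6.00e-05, standard error 0.16), at the edge of the 2-fold cutoff. The call was lost in 6 of 17 alternatives, among them limma and the fit without K562 replicate 1. Relative to K/VP.5, VDR rose in K562/SSedit-2 with a log2 fold change of 1.16. The xenobiotic receptor gene NR1I3 had 1.92 to 3.43 CPM in K562, 1.65 to 2.20 in K/VP.5 cells and 2.20 to 3.82 in the edited clone, with a log2 fold change of -0.59 (adjusted p = 0.0222) in K/VP.5. It shares 663 exon bases with TOMM40L on the other strand.

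The liver X receptors sense oxysterols. NR1H2 (LXR beta) had 71.4, 75.5, 66.3 and 68.2 CPM in K562, 81.8, 134, 113 and 115 CPM in K/VP.5 cells and 66.2, 78.6, 68.0 and 69.2 CPM in the edited clone. NR1H3 (LXR alpha) had 10.7, 9.07, 9.10 and 8.07 CPM in K562, 14.2, 13.5, 12.4 and 13.2 CPM in K/VP.5 cells and 8.01, 7.10, 7.16 and 6.80 CPM in the edited clone. K/VP.5 was highest for both, without overlap, with log2 fold changes of 0.66 (adjusted p = 0.000147) and 0.53 (adjusted p = 0.000375). NR1H3 was lowest in K562/SSedit-2, again without overlap, with a log2 fold change of -0.35 (adjusted p = 0.0506). NR1H2 shares 1182 exon bases with NAPSA on the other strand, which makes its count uncertain.

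Among the fatty acid receptors, PPARD had 21.1, 20.5, 17.5 and 15.8 CPM in K562, 12.6, 18.2, 14.2 and 13.7 CPM in K/VP.5 cells and 21.0, 22.6, 18.8 and 20.2 CPM in the edited clone, and only K/VP.5 and K562/SSedit-2 did not overlap. Its log2 fold change was -0.35 (adjusted p = 0.0238) in K/VP.5. PPARA had 5.62 to 7.75 CPM in K562, 6.10 to 7.15 in K/VP.5 cells and 5.12 to 5.57 in the edited clone, with log2 fold changes of -0.024 and -0.31, neither with an adjusted p under 0.1.

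The 3 COUP transcription factor genes, which often act as repressors, each had a different pattern. NR2F1 (ENSG00000175745, chromosome 5 from 93583222 to 93594611, plus strand) had 5.09, 4.95, 4.17 and 4.98 CPM in K562, 1.32, 1.09, 1.36 and 1.25 CPM in K/VP.5 cells and 2.93, 2.41, 2.31 and 2.86 CPM in the edited clone. The 3 lines did not overlap, with K562/SSedit-2 between the other 2. NR2F1 fell in K/VP.5 with a log2 fold change of -1.93 (adjusted p = 1.30e-08, standard error 0.14) and was lower in K562/SSedit-2 by less than 2-fold, at -0.87 (standard error 0.13, adjusted p = 0.000626). It rose in K562/SSedit-2 relative to K/VP.5 with a log2 fold change of 1.06. NR2F1 shares 158 exon bases with the antisense gene NR2F1-AS1, which had means of 0.484, 0.114 and 0.400 CPM in the parental, resistant and edited lines, respectively.

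NR2F2 had 80.2, 73.8, 74.4 and 86.0 CPM in K562, 96.3, 94.0, 87.9 and 102 CPM in K/VP.5 cells and 74.9, 84.9, 80.1 and 83.9 CPM in the edited clone, so K/VP.5 lay above both other lines, with a log2 fold change of 0.27 (adjusted p = 0.00454). NR2F6 had 171, 183, 150 and 136 CPM in K562, 115, 113, 127 and 134 CPM in K/VP.5 cells and 135, 124, 114 and 92.8 CPM in the edited clone. Both derived lines lay below K562 without overlap, with log2 fold changes of -0.39 (adjusted p = 0.00807) and -0.46 (adjusted p = 0.0177). The testicular receptor gene NR2C2 had 60.8, 54.2, 57.2 and 56.2 CPM in K562, 39.6, 45.4, 44.1 and 38.1 CPM in K/VP.5 cells and 59.5, 63.7, 58.9 and 65.2 CPM in the edited clone. It was lower in K/VP.5 without overlap, with a log2 fold change of -0.45 (adjusted p = 7.30e-05), and 7157 of its exon bases are shared with MRPS25 on the other strand. NR2C1, its paralog and partner at the embryonic and fetal globin genes, had 6.51 to 12.8 CPM in K562, 6.64 to 7.37 in K/VP.5 cells and 6.25 to 8.77 in the edited clone and did not differ at an adjusted p under 0.1.

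The NR5A genes moved in opposite directions in K/VP.5. NR5A1 (ENSG00000136931, chromosome 9 from 124481236 to 124507420, minus strand) encodes steroidogenic factor 1, the regulator of adrenal and gonadal steroid synthesis. It was counted 12, 5, 4 and 6 times in K562, 552, 515, 456 and 444 times in K/VP.5 cells and 16, 12, 10 and 12 times in the edited clone. In CPM this was 0.330, 0.115, 0.108 and 0.146, then 13.8, 13.7, 13.2 and 15.05, then 0.446, 0.321, 0.313 and 0.358. K/VP.5 thus lay far above the others, and K562 and K562/SSedit-2 overlapped through K562 replicate 1. NR5A1 rose in K/VP.5 with a log2 fold change of 6.32 (adjusted p = 6.21e-13, standard error 0.21), a 79.8-fold change. In K562/SSedit-2 it rose with a log2 fold change of 1.06 (adjusted p = 0.0491, standard error 0.31), a call that was lost without K562 replicate 2, 3 or 4, without K562/SSedit-2 replicate 1, or with only these lines in the fit. Over all alternatives its log2 fold change was 0.90 to 1.53.

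Of 17 other tested genes within 1 Mb of NR5A1, edgeR, limma and DESeq2 each called 0 past both cutoffs in K/VP.5, and 4 had an unadjusted p under 0.05. Their median log2 fold change was -0.032. One of them is the receptor gene NR6A1, with 165, 139, 151 and 158 CPM in K562, 96.1, 107, 99.5 and 105 CPM in K/VP.5 cells and 119, 121, 124 and 140 CPM in the edited clone. NR6A1 was lower in K/VP.5 without overlap, with a log2 fold change of -0.59 (adjusted p = 4.11e-06), and at -0.28 (adjusted p = 0.023) in K562/SSedit-2, where 1 library reached the K562 range. STAR, a textbook NR5A1 target that imports cholesterol for steroid synthesis, had means of 88.3, 127 and 77.4 CPM in the parental, resistant and edited lines, respectively. The log2 fold change of STAR in K/VP.5 was 0.53 (adjusted p = 3.78e-05), less than 2-fold, and CYP19A1, another textbook target, was at means of 0.180, 0.196 and 0.339 CPM.

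NR5A2 (ENSG00000116833, chromosome 1 from 200027614 to 200177420, plus strand), the liver receptor homolog, was counted 51, 11, 12 and 21 times in K562, 1, 1, 1 and 0 times in K/VP.5 cells and 31, 17, 16 and 10 times in the edited clone. K/VP.5 was the lowest in each case, and the other lines overlapped. NR5A2 fell in K/VP.5, where the summed counts of 95 and 3 gave a normalized ratio of 28.4 with a 95% counting interval of 9.42 to 140. K562 replicate 1 held 51 of the 95 counts. Without it the counts were 44 and 3, the ratio was 17.1 with an interval of 5.47 to 85.9, and the call was kept (adjusted p = 6.15e-05), with a fitted log2 fold change of -3.91 in place of -4.65. Its adjusted p was 0.00016 in K/VP.5 cells and 0.852 in the edited clone.

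NR4A receptors are immediate early genes that need no ligand. NR4A1 (ENSG00000123358, chromosome 12 from 52022832 to 52059507, plus strand), also named NUR77, had 3.79, 2.39, 1.48 and 1.92 CPM in K562, 7.50, 14.3, 9.35 and 10.2 CPM in K/VP.5 cells and 3.46, 3.11, 2.19 and 2.92 CPM in the edited clone. K/VP.5 lay above both other lines, which overlapped. NR4A1 rose in K/VP.5 with a log2 fold change of 2.11 (adjusted p = 2.90e-06, standard error 0.25), and its value in K562/SSedit-2 was 0.29 (adjusted p = 0.565). It shares 754 exon bases with its antisense gene NR4A1AS. NR4A2 had 2.93 to 4.23 CPM in K562, 2.90 to 3.54 in K/VP.5 cells and 2.63 to 4.35 in the edited clone, with log2 fold changes of -0.094 and -0.039 and standard errors of 0.17.

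The estrogen-related receptors bind DNA without a known natural hormone and act on genes of mitochondrial energy metabolism. ESRRA had 83.4, 125, 123 and 127 CPM in K562, 116, 113, 120 and 139 CPM in K/VP.5 cells and 111, 112, 122 and 103 CPM in the edited clone, so that the 3 lines overlapped and K562 replicate 1 was the lowest of all. ESRRB had 14.4, 8.95, 8.07 and 7.61 CPM in K562, 12.2, 11.97, 11.1 and 10.3 CPM in K/VP.5 cells and 10.5, 8.04, 8.44 and 8.53 CPM in the edited clone, also with overlap. Neither gene had an adjusted p under 0.1 in either comparison with K562.

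The same look at neighbours in K/VP.5 was made for the other called receptor genes, where 8.98% of all tested genes rose and 6.66% fell. Of 48 other tested genes within 1 Mb of RARG, 12 rose and 1 fell, and the 12 lie together within 0.167 Mb at 0.702 to 0.849 Mb from RARG, so no nearer neighbour rose. Of 36 such genes around VDR, 3 rose and 7 fell, at 0.0084 Mb or more from VDR. Around NR4A1, 3 of 21 rose and 2 fell, and around NR2F1 1 of 5 rose and 1 fell. Around NR3C2 1 of 3 rose, and around NR5A2 1 of 7. Some of these lay close and moved with the receptor gene. TAMALIN (log2 fold change 1.59) lay 0.00694 Mb from NR4A1, and ARHGAP10 (2.22) lay 0.00599 Mb from NR3C2. NR2F1-AS1, which overlaps NR2F1, fell with -2.13. The 2 that fell around NR4A1 lay 0.226 Mb or more away. The gene that rose near NR2F1 lay 0.922 Mb away, and the one near NR5A2 0.792 Mb away.

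**Figure D3:**
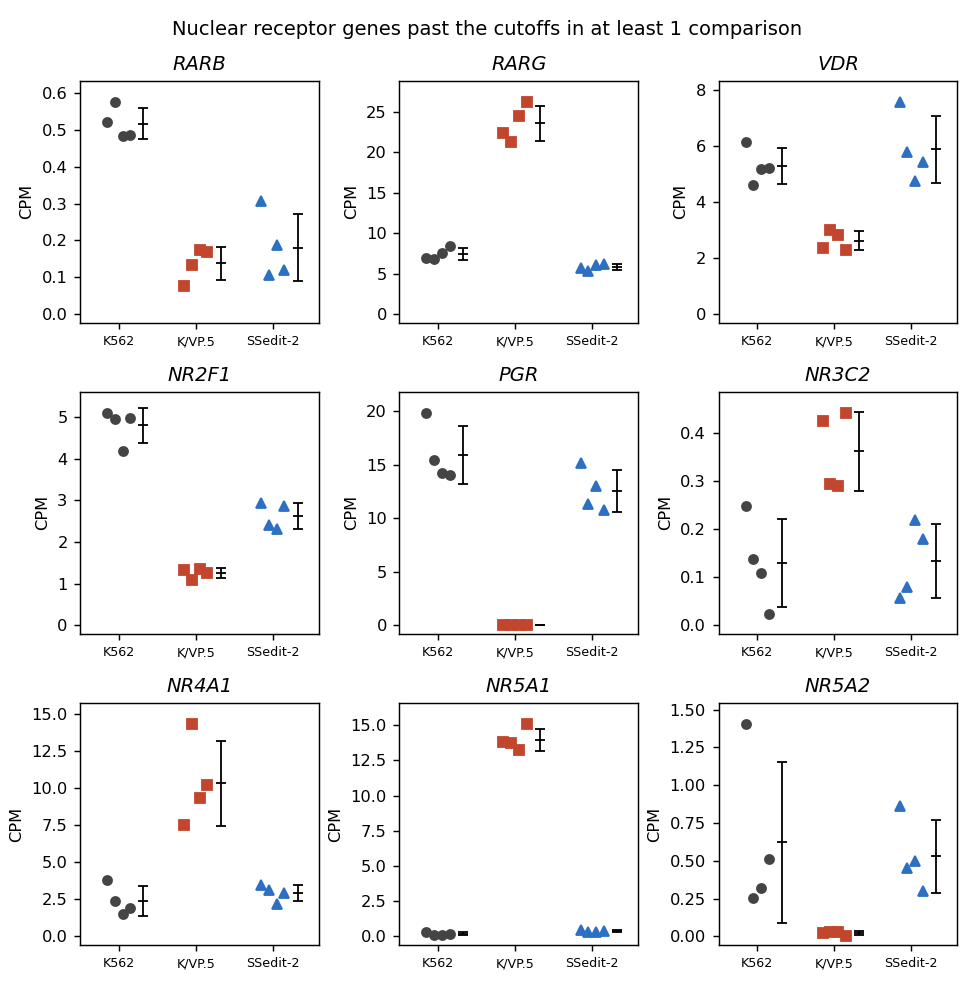
Normalized level (CPM) in each sample of the 9 nuclear receptor genes past both cutoffs in at least 1 comparison, with points for replicates 1 to 4 from left to right and a bar for the mean ± SD (n = 4) of each line. K/VP.5 is highest for RARG, NR3C2, NR4A1 and NR5A1 and lowest for VDR, NR2F1, PGR and NR5A2, and K562 is highest for RARB.

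Lists of 121 genes that act around the receptors were examined beside them, of which 84 were tested. In K/VP.5, 9 of the 84 rose and 3 fell, in K562/SSedit-2 1 fell, and in K562/SSedit-2 compared to K/VP.5 3 rose and 12 fell. The shares of all tested genes are those given above: 8.98% and 6.66% in K/VP.5, 1.26% lower in K562/SSedit-2, and 6.2% and 9.62% between the derived lines, against 10.7% and 3.57%, 1.19%, and 3.57% and 14.3% of the 84. The coregulator list (28 tested) comprises the coactivators of the NCOA group, corepressors such as NCOR1 and their enzymes. None of the 28 coregulator genes passed both cutoffs in any of the 3 comparisons by edgeR, limma or DESeq2, and 13, 8 and 14 had an unadjusted p under 0.05. Their median log2 fold change was -0.15 in K/VP.5 cells and -0.024 in the edited clone, with a range of -0.76 to 0.51 in K/VP.5. Of the 10 chaperone genes that hold steroid receptors ready for ligand, such as HSP90AA1 and FKBP4, 0 passed both cutoffs in any comparison by these tools, and 5, 1 and 5 had an unadjusted p under 0.05.

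Of 18 tested genes of ligand uptake and metabolism, 3 rose in K/VP.5 (8.98% of all tested genes did), and 1 fell in K562/SSedit-2 (1.26% of all tested genes did). The named genes are STRA6 and DHRS3, which both act on retinoids. STRA6, the membrane receptor for retinol-binding protein, had 2.06, 2.00, 1.94 and 1.29 CPM in K562, 16.99, 17.7, 16.3 and 17.9 CPM in K/VP.5 cells and 0.586, 0.214, 0.500 and 0.239 CPM in the edited clone. The 3 lines did not overlap, and K/VP.5 and K562/SSedit-2 lay on opposite sides of K562. STRA6 rose in K/VP.5 with a log2 fold change of 3.24 (adjusted p = 3.15e-10, standard error 0.18) and fell in K562/SSedit-2 with -2.24 (standard error 0.25, adjusted p = 2.20e-05). In K562/SSedit-2 relative to K/VP.5 it fell by 5.48 on the log2 scale (adjusted p = 5.82e-12).

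DHRS3, a retinaldehyde reductase that lowers retinoic acid synthesis, had 56.8, 44.5, 41.7 and 41.1 CPM in K562, 103, 94.3, 97.0 and 104 CPM in K/VP.5 cells and 55.8, 43.5, 44.4 and 43.0 CPM in the edited clone. It rose in K/VP.5, above all libraries of the other lines, with a log2 fold change of 1.11 (adjusted p = 2.15e-07). The third gene that rose, ALDH1A1, stayed below 1 CPM. ALDH1A2, which makes retinoic acid, was the most abundant of the list's retinoid genes by CPM, at means of 437, 524 and 518 CPM in the parental, resistant and edited lines, respectively, with log2 fold changes of 0.26 and 0.25. CYP26A1, the retinoic acid hydroxylase whose promoter holds the other DR5 element printed above, had means of 20.8 ± 5.35, 16.9 ± 0.671 and 17.1 ± 5.27 CPM, and the 3 lines overlapped. In the same order RARB, with its DR5 element, had 0.517, 0.138 and 0.180 CPM.

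**Figure D4:**
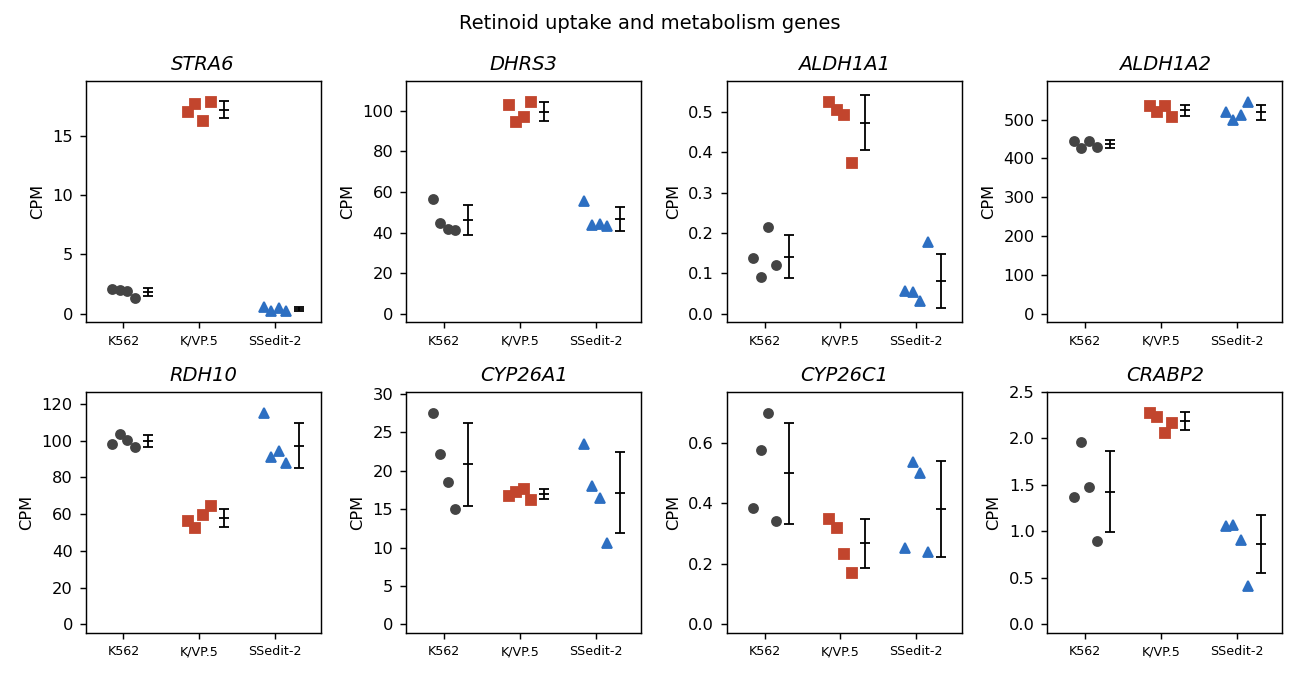
Normalized level (CPM) in each sample of 8 genes of retinoid uptake, metabolism and binding, chosen for display after their values were seen, with points for replicates 1 to 4 from left to right and a bar for the mean ± SD (n = 4). STRA6, DHRS3 and ALDH1A1 are highest in K/VP.5, RDH10 is lowest there, STRA6 is lowest in K562/SSedit-2 and the lines overlap for CYP26A1.

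Of 28 tested target genes of the receptors, 6 rose and 3 fell in K/VP.5, where 8.98% and 6.66% of all tested genes did. In place of these 9 calls by edgeR, limma made 8 and DESeq2 9. In K562/SSedit-2, 0 passed both cutoffs by edgeR, limma or DESeq2, and 9 had an unadjusted p under 0.05. CD36 and MT2A were among the 3 largest changes in K/VP.5 in genes of at least 1 CPM. CD36, a fatty acid transporter gene induced through PPARG, rose from a mean of 0.272 to 2.49 CPM. PPARG itself was silent in K/VP.5. MT2A, a metallothionein gene induced by glucocorticoids and metals, fell from 1.68 to 0.475 CPM.

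Target genes of 1 receptor did not all change the same way in K/VP.5. Of the glucocorticoid targets, TSC22D3 (2.41 on the log2 scale) and SGK1 (1.02) rose and MT2A (-1.78) fell, while FKBP5, at means of 255 and 240 CPM, had -0.083 (adjusted p = 0.293). TGM2, a transglutaminase gene induced by retinoic acid, fell with a log2 fold change of -1.67 (adjusted p = 2.67e-11), from a mean of 129 ± 9.12 to 40.7 ± 0.697 CPM. MYLIP, an LXR target that directs breakdown of the LDL receptor, fell with a log2 fold change of -1.01, while its receptor genes NR1H2 and NR1H3 were higher in K/VP.5. ANGPTL4, a PPAR target, rose with 1.47, and GREB1, an estrogen receptor target, rose with 1.15 at a mean of 0.571 CPM. Receptor activity and ligand levels were not measured. The genes ALDH1A1, ALDH1A2, CYP26A1, STAR and CYP19A1 and all target genes named here apart from CD36 and MT2A were chosen for mention after their values were seen.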

How the data were processed

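RNA-seq was done on 4 samples of each line. The authors aligned reads to GRCh38 with HISAT2 and summed them per gene with featureCounts, per the study's methods and the submitters' processing notes. The deposited values are raw integer counts for 60671 Ensembl genes. Annotation release, strandedness and the handling of multimapping reads are not given in the sources used here.

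Symbols, positions and exon lengths were taken from GENCODE 44 on GRCh38. The main analysis used edgeR 4.0.16 in R 4.3.3: filterByExpr with a minimum count of 10 (18626 genes left), TMM scaling, 1 fit of all samples by line, the quasi-likelihood F test, Benjamini-Hochberg adjustment over all tested genes, and the study's cutoffs of a 2-fold change and 10% false discovery rate. CPM is the count per 1000000 counts of the tested genes after TMM scaling. Standard errors were derived from the log2 fold change and its F statistic. The steps were tested on simulated data. The alternatives were DESeq2 1.42.0, limma 3.58.1 with voom (the study's tool), other scalings and filters, fits of only the compared lines, a replicate block, each replicate left out, other thresholds and, chosen after the data were seen, halving the counts of K562/SSedit-2 replicate 4 and low-count ratios without K562 replicate 1.

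Same-numbered samples of K562/SSedit-2 and K562 deviated together from their line means across genes (r of 0.135 to 0.292 in the 4 pairs, mean 0.205, against -0.0666 for other numbers). The numbers come from the sample titles. No replicates were duplicates: the chi-square per degree of freedom of the 18 pairs within a line was 5.15 to 61.8.

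The receptor genes and lists were chosen with earlier results of these data known. All receptor genes are accounted for. Those past the cutoffs or with a mean of at least 10 CPM in some line are given per sample. In the pathway lists, the 3 largest changes past the cutoffs with a mean of at least 1 CPM are named, except an item that is not reported here. Genes within 1 Mb of the called receptor genes were looked up after the data were seen. Protein domains of the receptors were not analysed here.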

Additional observations from a re-analysis of the deposited data

Results flagged for a closer look

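In 7 of 93 sets of 4 replicates of a tested receptor gene, 1 replicate was past Dixon's critical value, where chance alone flags about 5%. In K562 replicate 1, THRB was the highest at 38.4 CPM and ESRRA the lowest at 83.4 CPM. In K562 replicate 3, NR2F1 was the lowest at 4.17 CPM. In K/VP.5 replicate 4, THRB was the lowest at 16.1 CPM and RXRA the highest at 143 CPM. NR5A2 was also the lowest there, at 0.0 CPM, but with 0 counts against 1 in each of the other 3 libraries this is a step of a single count and does not set the replicate apart. In K562/SSedit-2 replicate 3, RORA was the highest at 1.31 CPM.

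For 2 receptor genes, K/VP.5 and K562/SSedit-2 lay on opposite sides of K562, each at an adjusted p under 0.1 by edgeR, and the difference between the derived lines was itself tested in the same fit. In K562/SSedit-2 relative to K/VP.5, the log2 fold change was -2.02 for RARG and -0.88 for NR1H3.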

How the results depend on the processing

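Of the 19 calls of a receptor gene in a comparison, 17 were kept in each alternative in which the gene could be tested, and none reversed. VDR in K/VP.5 was lost in 6 alternatives, with log2 fold changes of -1.09 to -0.93 over all 17, and NR5A1 in K562/SSedit-2 in 5. DESeq2 gave RARB no adjusted p in K562/SSedit-2. The number of receptor genes called in K/VP.5 compared to K562 was 9, and 5 with the filter that asks for 1 CPM or more in 4 samples, which tested 27 receptor genes, and 22 with no fold change cutoff. In K562/SSedit-2 compared to K562 it was 2, and 1 with that filter, with only the 2 lines in the fit or with the DESeq2 Wald test, 1 to 2 with a replicate left out and 9 with no fold change cutoff. In K562/SSedit-2 compared to K/VP.5 it was 8, and 23 with no fold change cutoff. For the pathway genes, no fold change cutoff gave 50, 16 and 52 in the same order, and leaving out a replicate gave 1 to 2 in K562/SSedit-2 compared to K562. The log2 fold change of TOP2A in K562/SSedit-2 was -1.12 to -0.96 with a replicate left out, below the 2-fold cutoff at -0.96. Requiring 0 counts in each library left 4, 3 and 5 silent receptor genes in the parental, resistant and edited lines, and allowing 10 counts gave 16 in K562/SSedit-2.

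With the replicate number as a block, 9 of 9, 2 of 2 and 8 of 8 receptor calls were shared with the fit without it. For K/VP.5 compared to K562, the correlations of same-numbered samples were -0.00265 to 0.269 (mean 0.107, against -0.0354 for other numbers). For K562/SSedit-2 compared to K/VP.5 they were -0.0947 to 0.161 (mean 0.0325, against -0.0108). In both comparisons the highest was that of the replicates numbered 1. Whether same-numbered samples share more than a number was not tested. Halving K562/SSedit-2 replicate 4 left the shared receptor calls at 9 of 9, 2 of 2 and 8 of 8 too. The 15 receptor genes that were not tested did not pass the filter on low counts, so no difference is reported for them. NR5A2 in K/VP.5 was at -3.94 on the log2 scale with limma voom, against -4.65.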
